A study of Danio rerio with 6 samples.

Results

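Opsin and phototransduction genes encode the light sensors of photoreceptors and the proteins that turn absorbed light into an electrical signal. A list of 45 zebrafish genes was followed: visual opsins, transducin and phosphodiesterase subunits, the cGMP-gated channel, the proteins that shut the response off, calcium sensors, guanylate cyclases and outer segment proteins. Of these, 43 were matched to 49 Ensembl identifiers among the 32520 genes of the count table, and gngt1 and pde6a were not matched. For 23 members the name table gave only an upper-case name shared by zebrafish copies, so every identifier with that name was taken and is given for names with several copies. By role, 21 identifiers belonged to cone genes, 12 to rod genes and 16 to genes shared by both cell types or not clearly assigned to either.

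RNA came from heads of zebrafish (Danio rerio) at 2 days post fertilization. Of 6 libraries, 3 were from slbp1-/- mutants and 3 from siblings given as wildtype, and rw440 stands in the titles of both groups. No agent was applied according to the labels. The lesion of the allele is not given in the sources used here. The same holds for whether heads were pooled or came from separate clutches, so the replicate spread behind each p-value may be technical.

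Libraries held 3421961 to 5395071 counts, so that 1 count was worth 0.173 to 0.259 CPM (CPM is counts scaled to a common library size, here with TMM factors). The transcript of slbp, the mutated gene, measured 98.1, 104.4 and 87.2 CPM in sibling replicates 1 to 3 and 180.4, 144.4 and 182.8 CPM in the mutants. It was not lost but called higher in mutants (log2 fold change 0.81, adjusted p = 0.00295 by edgeR's quasi-likelihood test), which does not check the genotypes. The first principal component separated the groups with 69.4% of the variance, and mutant replicate 3 lay apart from the other mutants on the next one. Crystallins and other lens genes, a check that the heads held eyes, summed to between 7002 and 13688 CPM over all libraries.

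In a vertebrate photoreceptor, light changes the shape of an opsin, which activates the G protein transducin. Transducin releases the phosphodiesterase PDE6 from its inhibitory subunits, PDE6 breaks down cGMP, and cGMP-gated channels close. Opsin kinases and arrestins end the response, while recoverins and guanylate cyclase activators tie it to calcium. Rods and cones use different copies of most of these proteins. The zebrafish retina starts to make its photoreceptors around the stage sampled here, and the pineal organ, also part of the head, holds photoreceptors that arise earlier.

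Many of these transcripts were lower in slbp1 mutant heads, and none was called higher. The recoverin genes rcvrna and RCVRN (ENSDARG00000019902), the outer segment gene rom1a and the rod-type arrestin gene sagb were among those called lower. Each of these had enough counts for the test only with the help of sibling libraries. The phosphodiesterase gene PDE6G and the transducin gene gnb1b had enough counts in every mutant library. Of these, PDE6G was called lower and gnb1b was not. The tested PDE6 catalytic subunit genes did not differ beyond the replicate spread. Over 21 identifiers with enough counts for edgeR's quasi-likelihood test, 13 were called lower at an adjusted p under 0.05 and 0 higher, against 12.8% and 12.9% of the 15561 genes tested. With an unadjusted p under 0.05, 15 were lower and 0 higher by the same test. The share of all genes at that unadjusted threshold was not counted. DESeq2 called 14 lower and 0 higher, against 1900 and 2031 of the 15561 genes. limma-voom called 11 and 0, against 1896 and 1983. With total counts alone as scaling, 71.8% of all calls were lower against 49.7% here, and 15 members were called lower. The members were chosen with earlier results of these data known, so their share beside that of all genes is a description, not independent support. In bulk heads, fewer photoreceptors and less RNA per photoreceptor cannot be told apart.

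The count filter bears on that comparison. All 3 mutant libraries were above its level of 2.07 CPM (total-count scaling) for 6 tested identifiers, some for 9 and none for 6. The filter asked for 3 libraries above the level, so identifiers of both latter kinds could be tested only with the help of siblings. Among these, 4 of the 9 and 5 of the 6 were called lower. Of the 6 identifiers above the level in every mutant library, 4 were called lower. With no filter, 48 identifiers were tested, and edgeR called 13 lower and 0 higher. Of all 24473 genes tested that way, 2211 were called lower and 2344 higher. The values that follow are again of the filtered fit. The tested identifiers had a median log2 fold change (mutant minus sibling) of -1.89, against 0.00 for all tested genes. For 15 of them the 3 mutant libraries all lay below the 3 siblings, and 21.8% of all tested genes did so.

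**Figure D1:**
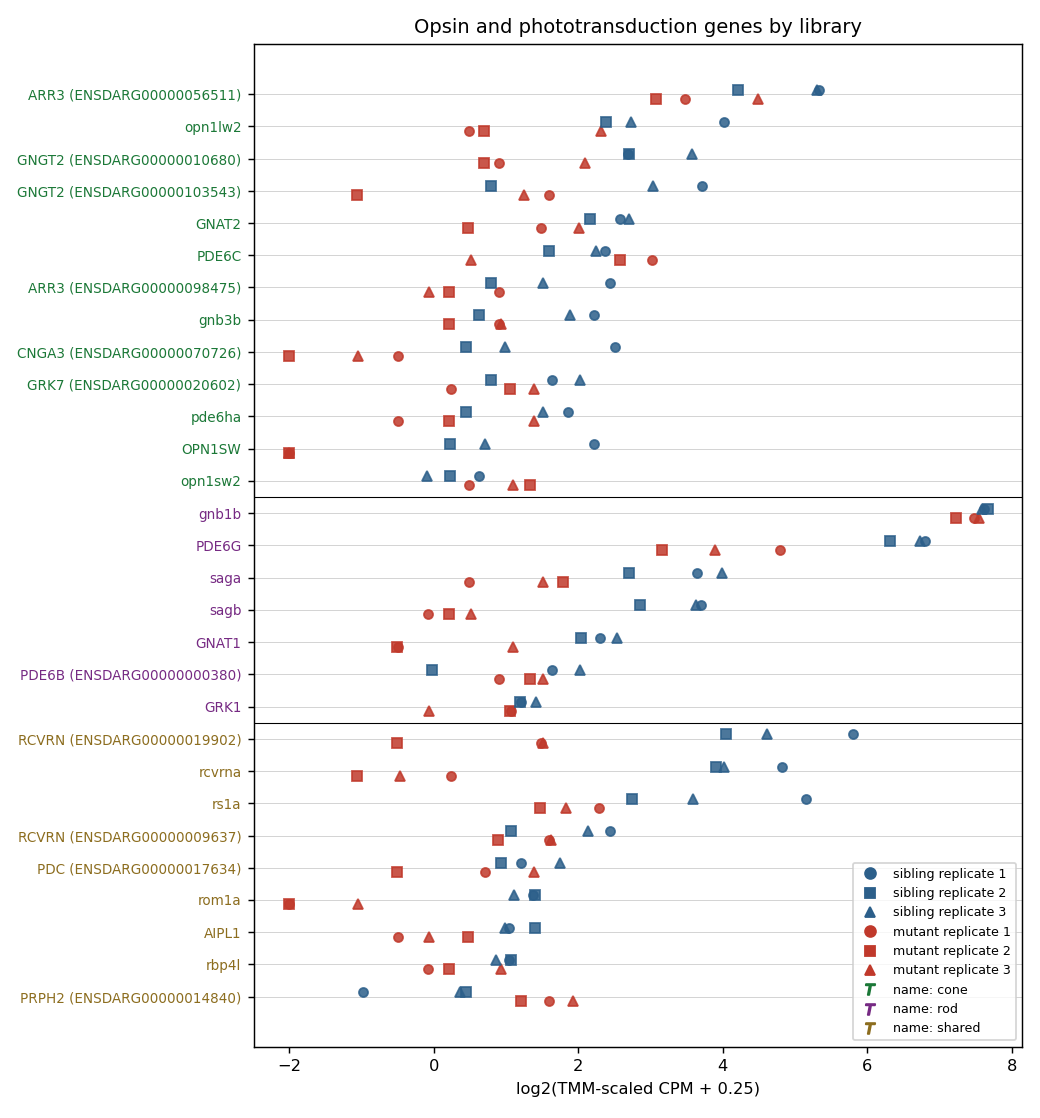
Level of members with a mean of at least 1 CPM or a call, 1 row per identifier reported, as log2(CPM + 0.25) on the horizontal axis. Blue symbols are sibling and red symbols mutant libraries, with a circle, square and triangle for replicates 1, 2 and 3; horizontal lines divide cone, rod and shared genes. rcvrna lies at or above 14.8 CPM in siblings and at or below 0.926 CPM in mutants, and gnb1b lies near 171 CPM in mutants and 197 CPM in siblings.

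Visual opsins come first in the pathway. Cone opsins were at low counts in both groups, and only 1 of them could be tested. The red-sensitive opsin opn1lw2 measured 16.0, 4.98 and 6.40 CPM in siblings and 1.16, 1.37 and 4.72 CPM in mutants. The groups did not overlap, but mutant replicate 3 came close to sibling replicate 2. It was called lower, by a log2 fold change of -1.89 ± 0.59 (SE, adjusted p = 0.0332 by edgeR's quasi-likelihood test). The call was lost without mutant replicate 1 (adjusted p = 0.0989), mutant replicate 2 (0.103) or sibling replicate 1 (0.182, at a log2 fold change of -1.24), and with limma-voom (0.0537). Without mutant replicate 3 the log2 fold change was -2.79. For opn1lw2 only 1 mutant library was above the filter's level, so it could be tested only with the help of siblings.

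The ultraviolet opsin, matched as OPN1SW, had 17, 5 and 8 counts in siblings, or 4.40, 0.922 and 1.38 CPM, and no count in any mutant library. Siblings were thus at least 3.21-fold higher, taking 3 counts per mutant library as the floor. It was too low for the count filter; with no filter edgeR called it lower (adjusted p = 0.00123). The blue opsin opn1sw2 did not follow this pattern. It measured 1.29, 0.922 and 0.692 CPM in siblings and 1.16, 2.28 and 1.89 CPM in mutants, with overlapping groups and an adjusted p of 0.492 by edgeR with no filter.

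The remaining cone opsins were near the limit of detection. The green opsin opn1mw1 had 6 counts in sibling replicate 1 and none elsewhere, and opn1mw2 had 1 count in the same library. The red opsin opn1lw1, encoded by a tandem copy of opn1lw2, had 6 counts in sibling replicate 2 and 2 in mutant replicate 3. A difference in these 3 genes was not detectable at this depth. Tandem opsin copies resemble each other, and the treatment of reads that fit several copies is not given in the sources used here, so the split among them is uncertain.

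Among transducin genes, the rod α subunit was called and the cone α subunit was not. GNAT1, the rod form, had 4.66, 3.87 and 5.54 CPM in siblings and 0.463, 0.456 and 1.89 CPM in mutants. The groups were well apart, with a log2 fold change of -2.30 ± 0.58 (SE, adjusted p = 0.0116 by edgeR). No mutant library was above the filter's level for GNAT1, so it could be tested only because siblings were high. Without sibling replicate 3 the adjusted p was 0.0592 and the call was lost, and without mutant replicate 3 the log2 fold change was -3.27. GNAT2, the cone form, had 5.69, 4.24 and 6.23 CPM in siblings and 2.55, 1.14 and 3.78 CPM in mutants. Every mutant library lay below the siblings, but the adjusted p was 0.0981 by edgeR, with a 95% interval of -2.12 to -0.10 on the log2 scale. GNAT2 was called without mutant replicate 3 (adjusted p = 0.0479) and with total counts alone as scaling (0.0446). The difference between the effects on GNAT1 and GNAT2 was not tested.

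The γ subunits of cone transducin, gngt2a and gngt2b, share the name GNGT2. ENSDARG00000010680 had 6.21, 6.27 and 11.6 CPM in siblings and 1.62, 1.37 and 4.01 CPM in mutants. With groups apart, it was called lower (log2 fold change -1.79 ± 0.47 SE, adjusted p = 0.0149 by edgeR). Its call was lost without mutant replicate 1 (adjusted p = 0.0534), mutant replicate 2 (0.0564) or sibling replicate 3 (0.0918), and its log2 fold change was -2.41 without mutant replicate 3. ENSDARG00000103543 spread widely among siblings, at 12.9, 1.48 and 7.96 CPM, against 2.78, 0.228 and 2.13 CPM in mutants. The groups overlapped through sibling replicate 2, and the adjusted p was 0.0810 by edgeR, or 0.0156 without that library. With replicate number as a block it was 0.00111, and with DESeq2 0.0220. For each GNGT2 identifier only 1 mutant library was above the filter's level, so both could be tested only with the help of siblings.

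Neither β subunit gene among the members was called. gnb1b encodes the β subunit that rod transducin shares with G proteins of many other tissues. It had 196, 202 and 192 CPM in siblings and 178, 149 and 186 CPM in mutants. Mutants were all lower by a small margin that was not called (log2 fold change -0.20, 95% interval -0.53 to 0.13, adjusted p = 0.362 by edgeR), except with total counts alone as scaling, where it was -0.48 (adjusted p = 0.0264). The cone β subunit gene gnb3b was at 4.40, 1.29 and 3.46 CPM in siblings and 1.62, 0.912 and 1.65 CPM in mutants, with overlapping groups and too few counts for the filter.

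A gene with the upper-case name GNB3 (ENSDARG00000004358) is no member, because gnb3b was matched by its own symbol, and it was chosen after its values were seen. It had 189, 54.6 and 53.1 CPM in siblings against 4.40, 1.14 and 1.89 CPM in mutants. Sibling replicate 1 was the highest and no mutant library came near the siblings (adjusted p = 0.00672 by edgeR). GNB3 was not above the filter's level in every mutant library, so it too could be tested only with the help of siblings.

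The phosphodiesterase genes included a called inhibitory subunit and uncalled catalytic subunits, and the difference between their effects was not tested. PDE6G, the only identifier for the rod inhibitory subunits pde6ga and pde6gb, had 111, 79.5 and 106 CPM in siblings and 27.3, 8.67 and 14.6 CPM in mutants. Siblings were 5.85-fold higher with a log2 fold change of -2.55 ± 0.34 (SE, adjusted p = 5.60e-04 by edgeR), and this call stood in every fit run. PDE6C, the cone catalytic subunit, had 4.92, 2.77 and 4.50 CPM in siblings and 7.87, 5.70 and 1.18 CPM in mutants. Mutant libraries lay on either side of the siblings, so no direction can be given (log2 fold change 0.29, 95% interval -0.89 to 1.47, adjusted p = 0.741 by edgeR).

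The name PDE6B, of a rod catalytic subunit, was carried by 2 identifiers. Since pde6a was not matched, whether one of them is that gene was not resolved. ENSDARG00000000380 was at 2.85, 0.738 and 3.81 CPM in siblings and 1.62, 2.28 and 2.60 CPM in mutants. These ranges overlap, with a 95% interval of -1.47 to 1.11 on the log2 scale (adjusted p = 0.859 by edgeR). A further identifier named PDE6B (ENSDARG00000011671) had 4, 2 and 8 counts in siblings and 3, 9 and 1 in mutants. The cone inhibitory subunit gene pde6ha had 3.36, 1.11 and 2.60 CPM in siblings and 0.463, 0.912 and 2.36 CPM in mutants and was not tested.

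**Figure D2:**
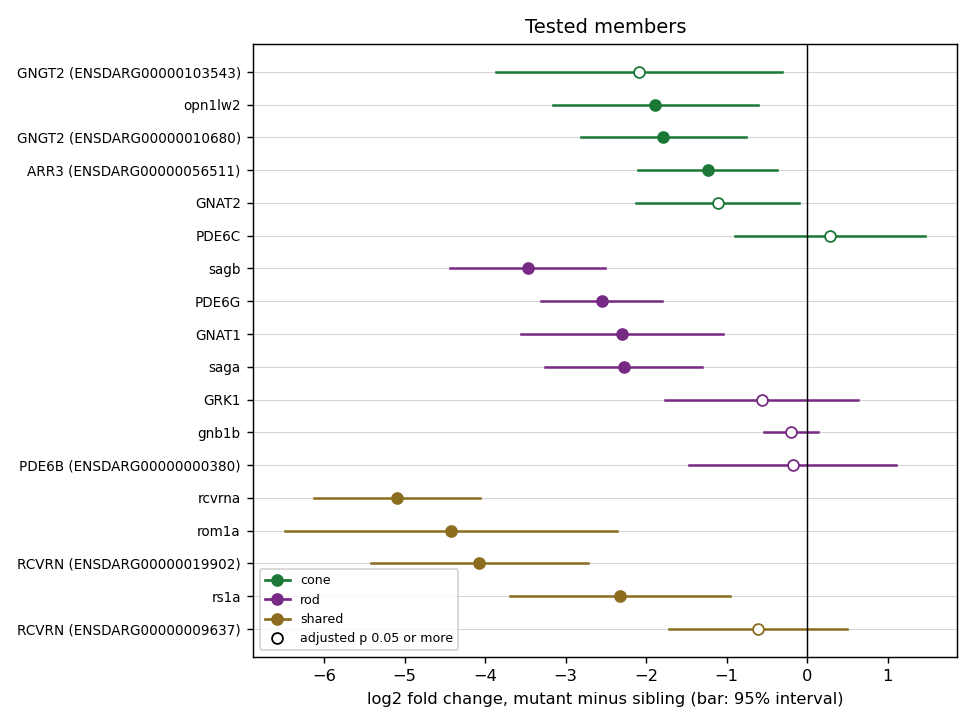
Log2 fold change (mutant minus sibling) of 18 tested identifiers, with bars for the 95% interval and colours for cone, rod and shared genes. Filled points had an adjusted p under 0.05 by edgeR's quasi-likelihood test; all 11 of them lie below 0, and the open point above 0 is PDE6C at 0.29.

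For the cGMP-gated channel, none of 3 identifiers passed the count filter. CNGA3, the name of the cone channel's main subunit, had 5.43, 1.11 and 1.73 CPM in siblings under ENSDARG00000070726, and 0.463, 0 and 0.236 CPM in mutants. With 3 counts in mutants against 37 in siblings, the ratio was 10.6 with a counting interval of 3.35 to 53.7. The groups did not overlap, and edgeR with no filter gave an adjusted p of 0.00811. The copy ENSDARG00000012297 had 2, 1 and 3 counts in siblings and none in mutants, and the modulatory subunit gene cngb3.1 had 0 to 3 counts in any library.

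Arrestins, which bind phosphorylated opsins, included some of the clearest differences. The rod-type arrestin sagb had 12.7, 7.01 and 12.1 CPM in siblings and 0.695, 0.912 and 1.18 CPM in mutants. The lowest sibling was well above the highest mutant, and the log2 fold change was -3.47 ± 0.45 (SE, adjusted p = 1.78e-04 by edgeR). Its copy saga had 12.2, 6.27 and 15.6 CPM in siblings and 1.16, 3.19 and 2.60 CPM in mutants, again with a gap between groups (-2.28 ± 0.45 SE, adjusted p = 0.00304 by edgeR). Both calls stood in every fit run. Neither gene was above the filter's level in every mutant library, so both could be tested only with the help of siblings.

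The cone arrestin name ARR3 covers arr3a and arr3b. ENSDARG00000056511 had 39.8, 18.3 and 39.3 CPM in siblings and 10.9, 8.21 and 22.2 CPM in mutants. Mutant replicate 3 was above sibling replicate 2, so the groups overlapped, and the call was a narrow one (log2 fold change -1.23 ± 0.39 SE, adjusted p = 0.0402 by edgeR). It was lost without mutant replicate 1 (adjusted p = 0.111), mutant replicate 2 (0.0951), sibling replicate 1 (0.121) or sibling replicate 3 (0.118), and with no filter (0.0622). ENSDARG00000098475 had 5.17, 1.48 and 2.60 CPM in siblings and 1.62, 0.912 and 0.708 CPM in mutants and was not tested.

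Opsin kinases were low and did not differ detectably. GRK1, the rod kinase name matched for grk1a, had 2.07, 2.03 and 2.42 CPM in siblings and 1.85, 1.82 and 0.708 CPM in mutants. All mutant libraries were lower, yet the 95% interval of -1.76 to 0.63 on the log2 scale includes no change (adjusted p = 0.491 by edgeR). GRK7 (ENSDARG00000020602), a cone kinase name, had 2.85, 1.48 and 3.81 CPM in siblings and 0.926, 1.82 and 2.36 CPM in mutants, with overlap. Another GRK7 copy (ENSDARG00000055534) had 2 to 9 counts per library and grk1b had 0 to 3.

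Recoverins are calcium-binding proteins that restrain opsin kinase, and 2 of 3 tested identifiers were called lower. rcvrna had 27.9, 14.8 and 15.9 CPM in siblings and 0.926, 0.228 and 0.472 CPM in mutants. Mutants retained 4, 1 and 2 counts against 108, 80 and 92 in siblings, and the log2 fold change was -5.10 ± 0.48 (SE, adjusted p = 1.30e-05 by edgeR). It was -5.70 without mutant replicate 1. RCVRN (ENSDARG00000019902), a name taken for rcvrn2 and rcvrn3, had 55.4, 16.2 and 24.2 CPM in siblings and 2.55, 0.456 and 2.60 CPM in mutants. Sibling replicate 1 was far above the other siblings, and the log2 fold change of -4.07 ± 0.60 (SE, adjusted p = 0.00128 by edgeR) was -3.43 without that library.

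The other recoverin under that name was not called. RCVRN (ENSDARG00000009637) had 5.17, 1.84 and 4.15 CPM in siblings and 2.78, 1.6 and 2.83 CPM in mutants, with overlapping groups and an adjusted p of 0.411 by edgeR. The interval of -1.71 to 0.49 on the log2 scale does not show that it stayed the same. Guanylate cyclases and their activators, which restore cGMP, were barely detected. gucy2f had 4, 5 and 5 counts in siblings and 0, 1 and 2 in mutants, a ratio of 4.01 with a counting interval of 1.12 to 21.7. gucy2d, listed in RefSeq with the synonym gc3, had 1 to 9 counts per library, guca1c 0 to 2 and GUCA1B 0 or 1.

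Outer segment genes were the last group. rom1a, a tetraspanin of the disc rim, had 2.33, 2.4 and 1.90 CPM in siblings, which is close agreement, and 0, 0 and 0.236 CPM in mutants. With 1 count in mutants against 33 in siblings, the ratio was 28.3 with a counting interval of 4.74 to 1153. It was called lower (adjusted p = 0.00493 by edgeR), with a fitted log2 fold change of -4.42, or -6.40 without mutant replicate 3, the only mutant library with a count. rs1a encodes retinoschisin, a protein secreted by photoreceptors that binds cells of the retina together. It had 35.4, 6.45 and 11.8 CPM in siblings and 4.63, 2.51 and 3.31 CPM in mutants. The groups were apart, but sibling replicate 1 stood out (log2 fold change -2.32 ± 0.61 SE, adjusted p = 0.0207 by edgeR). Without it the log2 fold change was -1.39 (adjusted p = 0.0497). The call was lost without mutant replicate 2 (0.0502) or mutant replicate 3 (0.194), with limma-voom (0.0615) and with no filter (0.0715).

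PRPH2, the name of the peripherins that pair with ROM1 in the disc rim, ran the other way at low counts. ENSDARG00000014840 had 0.259, 1.11 and 1.04 CPM in siblings and 2.78, 2.05 and 3.54 CPM in mutants. Every mutant library was above the siblings, but it did not pass the filter, and edgeR with no filter gave an adjusted p of 0.0972. The copy ENSDARG00000038018 had 0 or 1 count per library.

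Other shared genes were low throughout. AIPL1, a chaperone for PDE6, had 1.81, 2.4 and 1.73 CPM in siblings and 0.463, 1.14 and 0.708 CPM in mutants. These groups did not overlap, with an adjusted p of 0.264 by edgeR with no filter. Phosducin, which binds transducin βγ, was matched as PDC. ENSDARG00000017634 had 2.07, 1.66 and 3.12 CPM in siblings and 1.39, 0.456 and 2.36 CPM in mutants, and ENSDARG00000011886 had 1, 8 and 13 counts against 0, 2 and 1. rbp4l, a retinol-binding protein gene by its name, had 1.81, 1.84 and 1.56 CPM in siblings and 0.695, 0.912 and 1.65 CPM in mutants. One impg2b identifier had 1, 0 and 2 counts in siblings and none in mutants, and the other had no count.

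With low genes included, the sums per class gave the same picture with unequal sizes. Cone genes summed to 116, 50.2 and 96.2 CPM in siblings and 34.5, 26.5 and 50.5 CPM in mutants, a 2.35-fold difference of means. Mutant replicate 3 just exceeded sibling replicate 2, so the cone sums overlapped. Rod genes without gnb1b, which would otherwise dominate, summed to 235, 165 and 234 CPM in siblings and 46.3, 34.4 and 45.1 CPM in mutants, a 5.04-fold difference with no overlap. With gnb1b included the difference was 1.92-fold.

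Shared genes summed to 134, 51.1 and 69.6 CPM in siblings and 16.4, 10.5 and 18.7 CPM in mutants, a 5.59-fold difference. The cone sum divided by the rod sum without gnb1b was 0.493, 0.303 and 0.412 in siblings and 0.745, 0.768 and 1.12 in mutants. The mutant ratios all lay above the sibling ratios only with gnb1b left out. Over all rod genes, a choice added after seeing the data, the ratio was 0.269, 0.137 and 0.226 in siblings and 0.154, 0.144 and 0.218 in mutants. Those groups overlapped, and no direction of the ratio can be given. These sums weigh long and abundant transcripts more, since counts are not per length, and they are given as a description with no test. Sibling replicate 2 was the lowest sibling in each of these sums.

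**Figure D3:**
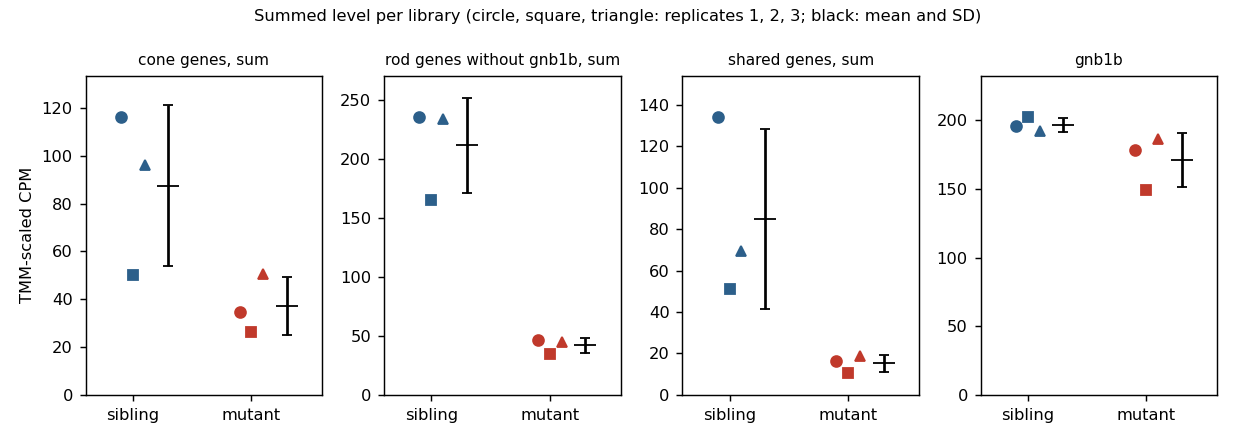
Summed CPM per library for cone genes, rod genes without gnb1b, shared genes, and gnb1b alone, with each axis starting at 0. Symbols are replicates 1 (circle), 2 (square) and 3 (triangle), and black marks are mean and SD (n = 3); rod sums lie at 165 CPM or more in siblings and at 46.3 CPM or less in mutants.

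A separate list was mainly of further genes of phototransduction and the outer segment. It also held SLC24A5, a pigment cell gene that was among those called lower. SLC24A5 is named here for its function and not by its p. Of its 50 matched identifiers 25 were tested, 16 of them called lower and 1 higher by edgeR. Over all 15561 tested genes, 12.8% were called lower and 12.9% higher, the shares to set beside each list below too. This list and those below were also chosen with earlier results of these data known, so such comparisons are descriptions. The list's median log2 fold change was -1.31. With no filter 49 were tested, 18 of them called lower and 2 higher, against 2211 lower and 2344 higher of all 24473 genes tested. By lowest p, the fallers were led by SAMD7, a photoreceptor transcriptional repressor, arl3l1, CKMT2 (ENSDARG00000069615) and tulp1a, a gene needed for transport to the outer segment. None of these was above the filter's level in every mutant library, so each could be tested only with the help of siblings. tulp1a had 24.3, 10.3 and 11.4 CPM in siblings and 1.39, 0.684 and 2.60 CPM in mutants (-3.27 ± 0.49 SE, adjusted p = 4.92e-04). The riser, RDH8 (ENSDARG00000105060), was chosen after its values were seen and went up by 1.56 on the log2 scale, while the RDH8 copy ENSDARG00000028048 went to -1.29.

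Many genes listed as regulators of photoreceptor identity were lower as well. Of 20 tested, edgeR called 14 lower and 0 higher, against 12.8% and 12.9% of all tested genes. At an unadjusted p under 0.05 by edgeR, 16 were lower and 1 higher, but the share of all genes at that threshold was not counted. DESeq2 and limma-voom each called 14 lower and 0 higher. The list's median log2 fold change was -1.22. Since libraries were of whole heads, changes in genes of this list cannot be placed in photoreceptors. crx, which activates opsin and phototransduction genes, measured 297, 218 and 217 CPM in siblings and 13.0, 7.30 and 5.67 CPM in mutants (adjusted p = 1.83e-07). The list was led by crx, six7, NEUROD1 and PRDM1.

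Markers of other cell types moved with these genes to different degrees, and their part in the result was not tested. Of the pineal list, 12 of 21 identifiers were tested, with a median of -0.85. edgeR called 4 of them lower and 0 higher, against 12.8% and 12.9% of all tested genes. At an unadjusted p under 0.05 by edgeR, 6 were lower and 1 higher, and again the share of all genes was not counted. DESeq2 and limma-voom each called 4 lower and 0 higher. Without crx, which also stands on the regulator list, edgeR called 3 of 11 tested lower and 0 higher. aanat2, which makes melatonin's precursor in the pineal, had 10.1, 4.43 and 6.40 CPM in siblings and 0.926, 1.14 and 1.18 CPM in mutants (-2.64 ± 0.49 SE, adjusted p = 0.00207 by edgeR). No mutant library was above the filter's level for aanat2, so it could be tested only with the help of siblings. LHX4, a transcription factor gene, was at -2.77. ASMT and asmt2, of the next step in melatonin synthesis, were at -0.86 and -0.70 on the log2 scale and not called (adjusted p = 0.246 and 0.101). The list summed to 381 to 483 CPM in siblings and 91.5 to 117 CPM in mutants, or to 163 to 186 and 84.2 to 111 CPM without crx, which retinal photoreceptors also express. The pineal opsins parapinopsina, parapinopsinb and parietopsin stayed at or under 1.18 CPM in every library.

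Among non-visual opsins, 4 of 28 identifiers could be tested and all 4 were called lower by edgeR, against 3 by DESeq2 and 2 by limma-voom. With no filter 27 were tested and 3 called lower, against 2211 of all 24473 genes tested. opn6a, also on the pineal list, had 118, 126 and 116 counts in siblings and 1, 0 and 0 in mutants. The ratio was 309 with a counting interval of 55.1 to 12243, and the adjusted p was 8.93e-07 by edgeR. No mutant library was above the filter's level for opn6a, so it could be tested only because siblings were high. The others were the retinal G protein-coupled receptor genes RGR (-0.84) and rgrb (-0.72) and the peropsin gene RRH (-1.69 on the log2 scale), which belong to pigment epithelium and glia. This list summed to 94.8 to 132 CPM in siblings and 41.5 to 70.1 CPM in mutants.

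Of 26 tested visual cycle and pigment epithelium genes, 8 were called lower and 1 higher, against 12.8% and 12.9% of all tested genes. The list had a median of -0.54 and sums of 2660 to 3360 CPM in siblings and 1618 to 2169 CPM in mutants. RPE65 (ENSDARG00000007480), the isomerase that regenerates the chromophore, measured 68.3, 39.6 and 60.4 CPM in siblings and 26.9, 13.9 and 20.8 CPM in mutants (adjusted p = 0.00184 by edgeR). TYRP1 (ENSDARG00000056151) and pmelb, of melanin formation, were at -1.37 and -0.99, and the riser was the retinol dehydrogenase gene RDH10 (ENSDARG00000058730) at 1.72.

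Libraries were of whole heads, so changes in genes listed for retinal neurons or progenitors cannot be placed in the retina. Of 29 tested genes listed for other retinal neurons, 18 were called lower and 2 higher, against 12.8% and 12.9% of all tested genes. Genes of this list had a median of -1.25. They summed to 1616 to 2184 CPM in siblings and 1008 to 1932 CPM in mutants. These sums overlap through mutant replicate 1, the highest mutant library. Their fallers included ISL1, TFAP2A and TFAP2C. The risers included the glycine transporter gene SLC6A9, chosen after its values were seen. Genes listed for retinal progenitors went the other way, with 9 of 18 called higher and 2 lower, against those same 12.9% and 12.8%. Their median was 0.56. They summed to 2188 to 2720 CPM in siblings and 4642 to 5384 CPM in mutants. The risers included PCNA, rx1 and HES1; the fallers SIX6 (ENSDARG00000025187) and LHX2 were chosen after their values were seen.

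Lens genes did not move as a group. None of 20 tested (0 calls) was called by edgeR, DESeq2 or limma-voom, and the median log2 fold change was 0.00. With edgeR 0 had an unadjusted p under 0.05, a threshold at which the share of all genes was not counted.

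**Figure D4:**
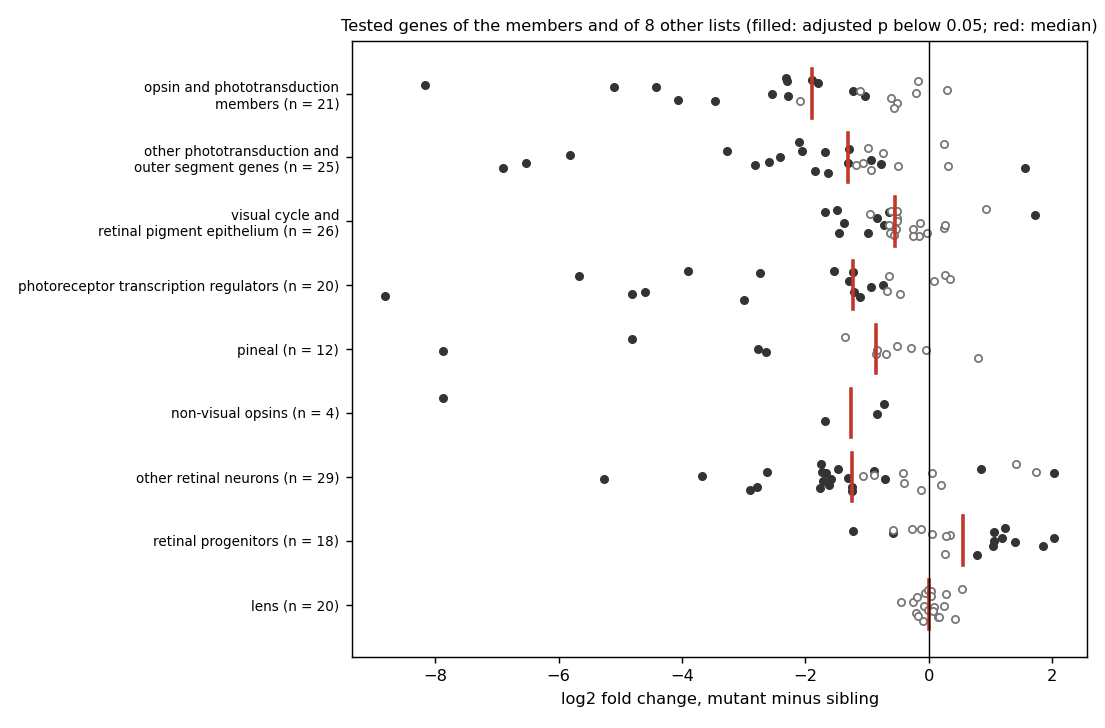
Log2 fold change (mutant minus sibling) of every tested identifier, 1 row per list, with filled points for an adjusted p under 0.05 by edgeR, open points for the rest and a red bar for the median. The members have a median of -1.89, retinal progenitors of 0.56 and lens genes of 0.00; some genes, such as crx and opn6a, stand on more than 1 list.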

How the data were processed

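Per the submitters' processing notes, HISAT2 and featureCounts were used with the GRCz11 build; tool versions, strand setting and annotation release were not stated there. The deposited values were raw counts, whole numbers for each Ensembl gene. Symbols came from a name table covering 29201 of 32520 genes. Libraries (3 per group, grouped by title) were tested with edgeR 4.0.16 in R 4.3.3: filterByExpr, TMM factors, quasi-likelihood test, Benjamini-Hochberg adjustment over all 15561 tested genes, threshold 0.05. SE is the log2 fold change divided by the square root of F, and intervals are 95%. Ratios of counts have exact binomial intervals, which cover counting error only, as does the floor of 3 counts per library.

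Alternatives were other size factors, 2 other filters, DESeq2 1.42.0, limma-voom (limma 3.58.1), leaving out each library, and a replicate block. On simulated counts 34% of 100 genes changed 2-fold and 83% of 100 changed 4-fold were recovered among 15021 genes, with 11 false of 128 calls. Far fewer genes were changed there than the 4004 called in the data, so these shares need not hold for the real fit. No pair of replicates agreed within sampling noise (chi-square per degree of freedom 6.34 to 17.6). Members and lists were chosen with earlier results of these data known. Values per library are printed for cone opsins and for members with a mean of at least 1 CPM or a call, and up to 4 called genes by lowest p are named per other list. Some identifiers of the list and 1 gene of other lists enter the counts, medians and sums, but their own values are not reported here. Sequences and promoter motifs were not analysed here.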

Additional observations from a re-analysis of the deposited data

How the results depend on the processing

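Over other size factors, filters and tools and the replicate block, 11 to 15 members were called lower and 0 higher. With no filter it was 13 of 48 tested, against 13 of 21 in the main fit. Leaving out 1 library gave 8 to 13, with 8 without mutant replicate 2, and 0 higher; fewer samples were then tested. Counting only identifiers matched by a zebrafish symbol or synonym, an alternative chosen after seeing the data, 6 were lower, by construction fewer. Of 13 called members, 7 were called in every fit that tested them, 6 lost the call in 1 or more, and 0 reversed; of 8 not called, 3 gained a call in 1 or more. Over all genes 4004 were called, 3879 to 4555 with other factors, filters and tools, and 2521 to 3763 without 1 library. With total counts alone as scaling, the median over all genes was -0.26, and 71.8% of calls were lower instead of 49.7%. The rod sum, at a log2 ratio of -0.94, was -1.22 with total counts alone and -2.33 without gnb1b, which is also its member with the highest sibling mean. Leaving out 1 library, it was -0.85 to -1.01, the cone sum -0.99 to -1.52 and the shared sum -2.0 to -2.75. Cone and shared sums moved by less than the replicate spread in each alternative run. With replicate number as a block 5059 genes and 14 members were called. The labels state no pairing. Libraries with the same number had residual correlations of 0.24, 0.089 and 0.18, all above the -0.22 to 0.064 of those with different numbers. Whether replicates were paired was not tested, and the main fit ignores any such pairing. Depth limits genes near the level of 3 counts, 0.519 to 0.776 CPM by library.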
